A study of Mus musculus with 6 samples.

Results

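Neuroendocrine lineage and granule genes were followed in biopsies of squamous cell lung tumours grown in a mouse model. The 9 genes were taken by name, and the rule uses no measured value: CHGA, CHGB, SYP, CALCA, INSM1, SCG2, SCG5, SYN2 and RESP18, written in capitals as in the count table. Of these 9, 8 were read from the table of 46937 gene symbols and CALCA was not analysed here. A filter on low counts, which asks for about 10 counts (0.14 CPM) in at least 3 libraries, kept 6 of the 8 among the 21201 genes tested. SCG2 and RESP18 were under it, and SCG5 passed through its PSC libraries alone. The control tumours, called PSC, combine an always-active PI3K allele, Pik3caH1047R, with overexpressed SOX2, Sox2OE, and loss of CDKN2A/B, Cdkn2a/bKO, and the PSCN tumours carry the same alterations and express the NSD3T1242A mutant of the histone methyltransferase NSD3. Total RNA of 3 biopsies per group was sequenced. No source used here gives the strain, the age, the driver of each transgene or whether each biopsy came from its own mouse. The p-values therefore measure only the spread between these libraries, which may be in part technical. Values are given in the order of libraries 1, 2 and 3 of a group.

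Pulmonary neuroendocrine cells are rare, innervated cells of the airway epithelium that sense stimuli and release peptides and amines. Their dense-core granules are built around acidic proteins called granins, and their small synaptic-like vesicles carry the same coat and docking proteins as those of neurons. The fate is set by transcription factors such as INSM1, is held back by Notch signalling in neighbouring cells, and is silenced in most other cells by the repressor REST. The same genes mark neuroendocrine lung tumours, which pathologists separate from squamous ones by staining for chromogranin and synaptophysin.

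Total counts ran from 69563622 to 72807077 per library. One count was worth 0.0132 to 0.0155 CPM, counts scaled to a common library size after TMM adjustment. NSD3 stood at 79.7 to 101.7 CPM in PSC against 820.7 to 1931.8 CPM in PSCN (log2 fold change 3.72, adjusted p = 0.137 in edgeR). PSC library 3 resembled PSCN more than its own group: its mean correlation of log2 CPM across the genes tested, which are not independent replicates, was 0.941 with PSCN and 0.908 with the other PSC libraries. The female transcript XIST reached 1087.92 CPM in PSC library 2 and 1033.85 CPM in PSC library 3, and at most 2.4 CPM in the other 4 libraries.

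All 8 genes with a row were higher in PSC libraries 1 and 2 than in any PSCN library, and for 7 of the 8 PSC library 3 was lower than the other PSC libraries. The exception was SYN2, the synapsin gene, which was alike in all 3 PSC libraries. Neither count was made over all genes, so both describe these 8 genes only. The 8 genes together summed to 47.3, 30.8 and 15.4 CPM in PSC against 10.6, 3.48 and 4.45 CPM in PSCN. Without SYN2 the PSC sums were 37.4, 21.4 and 4.47 CPM, and the last of these lay below the 8.37 CPM of PSCN library 1. In bulk tissue, fewer cells of a type and less RNA per cell cannot be told apart.

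**Figure D1:**
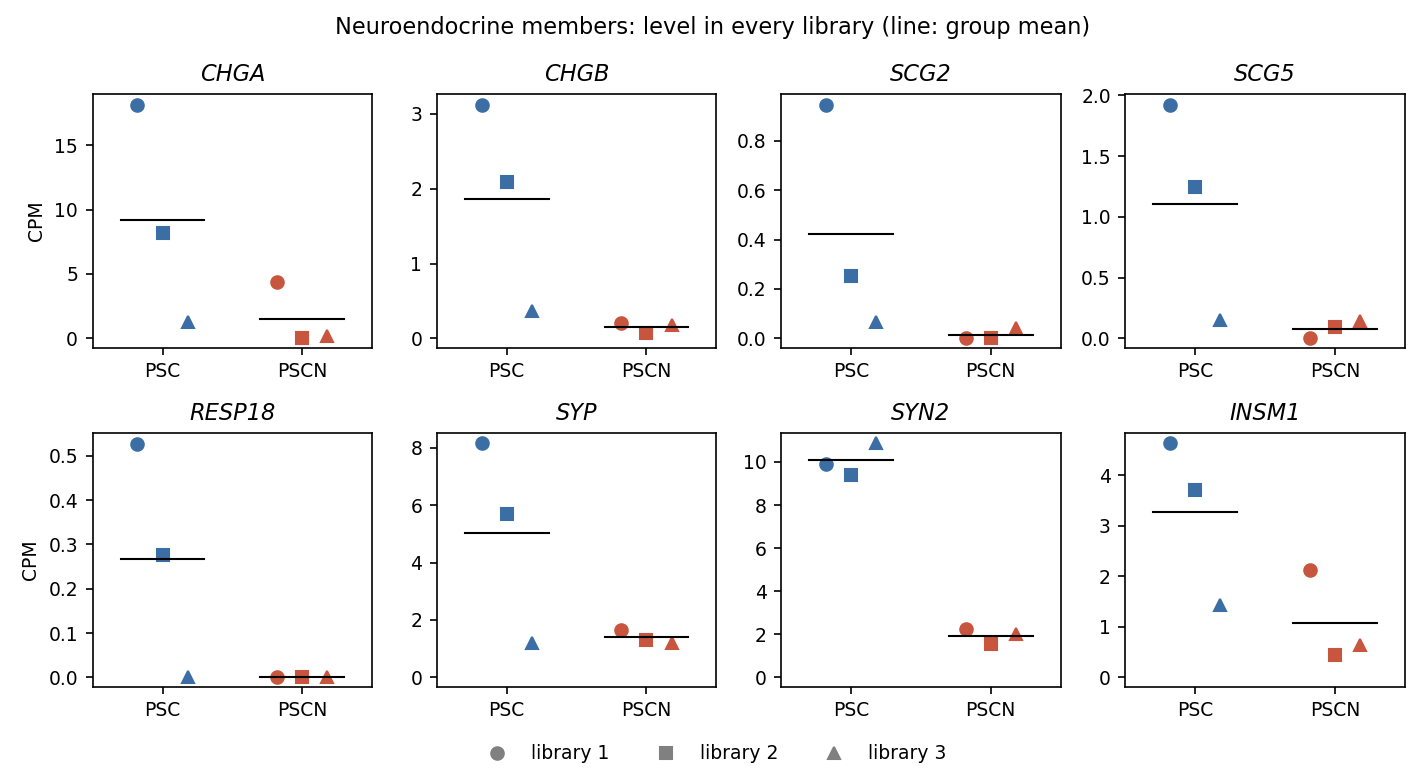
CPM (vertical axis, linear, own scale per gene) of the 8 genes in each of 3 PSC and 3 PSCN libraries, with PSC in blue, PSCN in red, symbols for the library number and a line at the group mean. PSC library 3 (triangle) sits near the PSCN points for every gene but SYN2, where the PSC libraries lie at 9.38 to 10.9 CPM and the PSCN libraries at 1.56 to 2.23 CPM.

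The granins are the cargo that gives a dense-core granule its mass. CHGA, chromogranin A (ENSMUSG00000021194.6, chromosome 12, 102554969 to 102565028 in GRCm38), stood at 18.1, 8.14 and 1.23 CPM in PSC against 4.37, 0 and 0.209 CPM in PSCN. The groups overlapped, because PSCN library 1, with 300 counts, lay above PSC library 3, with 90. The PSC mean was 9.15 ± 8.47 CPM and the PSCN mean 1.53 ± 2.47 CPM (SD, n = 3 each). The log2 fold change was -2.58 (SE 1.90, adjusted p = 0.444 in edgeR), a difference within the spread between libraries. CHGA had the largest SE of the 6 tested genes, with a log2 fold change of -6.39 without PSCN library 1 and of 0.29 with PSC library 3 alone for PSC.

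CHGB, chromogranin B (ENSMUSG00000027350.8, chromosome 2, 132781278 to 132795079), stood at 3.12, 2.09 and 0.368 CPM in PSC against 0.204, 0.0773 and 0.181 CPM in PSCN. The groups did not overlap, and the lowest PSC library had 27 counts against 14 in the highest PSCN library. The log2 fold change was -3.57 (SE 0.88), or 11.9-fold lower in PSCN, with an unadjusted p of 0.00671 and an adjusted p of 0.187 in edgeR. Without PSC library 3 it was -4.04 (SE 0.54) and passed, with an adjusted p of 0.0403 in edgeR.

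SCG2, secretogranin II and the precursor of the peptide secretoneurin (ENSMUSG00000050711.7, chromosome 1, 79434669 to 79440120), was the scarcest of these 3 granins. It had 70, 19 and 5 counts in PSC against 0, 0 and 3 counts in PSCN. Over the groups, 94 counts against 3 gave a level 28.8-fold lower in PSCN, with an exact (Clopper-Pearson) 95% interval of 9.55 to 142 that covers counting error only. PSC library 1 alone held 70 of the 94 counts. Fitted with no filter, SCG2 had a log2 fold change of -4.75 (SE 1.52, adjusted p = 0.267 in edgeR), which depends on the prior count at such levels.

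2 further genes serve the granule without being classical granins. SCG5 encodes the chaperone 7B2 of the prohormone convertase PCSK2 (ENSMUSG00000023236.7, chromosome 2, 113776362 to 113829121). It had 142, 95 and 11 counts in PSC against 0, 6 and 10 counts in PSCN, or 1.92, 1.25 and 0.15 CPM against 0, 0.0927 and 0.14 CPM. The groups are apart by 1 count, since PSC library 3 had 11 and PSCN library 3 had 10. The log2 fold change was -3.80 (SE 1.32, adjusted p = 0.199 in edgeR). RESP18, a granule protein of endocrine cells (ENSMUSG00000033061.15, chromosome 1, 75272199 to 75278415), had 39 and 21 counts in PSC libraries 1 and 2 and 0 in the other 4 libraries. Set against a floor of 3 counts over the whole PSCN group, its level was at least 18.4-fold lower in PSCN, while PSC library 3 was itself at 0. Neither gene was apart from PSCN in PSC library 3 by more than a single count.

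Sequence near the start is shown for some of the granule genes that were high in the same 2 libraries, PSC 1 and PSC 2, to set their letters side by side. The windows are RefSeq's (GRCm38.p6), 250 bases before to 50 after each start. GENCODE M21, used for the gene spans, starts CHGB and SCG2 further upstream, so that their printed bases lie within its exons. The windows held 8 of the 9 genes, all but INSM1. Positions count back from -1, the base before the start. The letters TGACGT, the core of the cAMP response element, were searched on both strands. The 8-base palindrome TGACGTCA holds that core on each strand. 4 of the 8 genes in the table had TGACGT (CHGA, CHGB, SCG2 and SCG5), and 7.51% of all 32851 windows had it. Of the other list genes in the table, 11 of 70 had it. TGACGTCA was in the windows of CHGB at -72 and SCG2 at -68, and of 4 of the 70 other list genes, against 1.79% of all windows. These 4 were the convertase PCSK1 at -78, SST, which had 0 counts in all libraries, and SLC18A2 and SYN1, with log2 fold changes of -0.28 and 0.04. PCSK1 is printed as a granule gene, and its values resemble those of the granins. Other granule genes high in PSC libraries 1 and 2, PTPRN2 and PCSK1N, had no TGACGT in their windows. PTPRN2 had 433, 368 and 35 counts in PSC against 31, 2 and 8 in PSCN, and PCSK1N 33, 26 and 0 against 0, 0 and 3. CHGA had TGACGT at -44, and SCG5 had it at -175 and, after the start, at 40. Each sequence is printed 5′ to 3′ on the gene's strand, with TGACGT or TGACGTCA in capitals, and with GGGCGG, a GC box found in 35.7% of windows, also in capitals for CHGA. The windows are chr12:102554841-102554940 (plus) for CHGA, chr2:132781558-132781587 (plus) for CHGB, chr1:79440077-79440106 (minus) for SCG2, chr2:113829249-113829278 (minus) for SCG5 and chr13:75089767-75089796 (plus) for PCSK1.
CHGA: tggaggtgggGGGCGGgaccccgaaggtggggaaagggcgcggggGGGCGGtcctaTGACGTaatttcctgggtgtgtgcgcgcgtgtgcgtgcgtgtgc
CHGB: ggggctgctccgTGACGTCAgggctgagcg
SCG2: aggctgagccggTGACGTCAgcgtggaatg
SCG5: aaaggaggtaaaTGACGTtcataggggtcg
PCSK1: tccaggtagatcTGACGTCAagagatggct

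SCG2 also had TCAGCACC, a stretch of the element that REST binds, at -7 on the other strand, where it reads GGTGCTGA. It was the only one of the 8 genes in the table with that match, which 1.65% of all windows had. The 30 bases around it, at chr1:79440022-79440051 (minus), span the start and are printed with the match in capitals. GGGCGG was in 5 of the 8 windows, those of CHGA, CHGB, SCG5, SYP and SYN2. The windows of SYP and SYN2 held no TGACGT. RESP18 had no TGACGT either. CAGCTG, an E-box, the kind of site that basic helix-loop-helix factors bind, was in 4 of the 8 windows (16.3% of all windows): RESP18 at -73, CHGA at -179 and -116, CHGB at 31 and CALCA at 28. The 60 bases before the first SYN2 start, chr6:115134842-115134901 (plus), are printed with GGGCGG in capitals, and the 100 bases before the RESP18 start, chr1:75278416-75278515 (minus), with CAGCTG in capitals. These matches describe the letters of the windows and are no measure of binding.
SCG2: taagccgaggagctgtccGGTGCTGAaacg
SYN2: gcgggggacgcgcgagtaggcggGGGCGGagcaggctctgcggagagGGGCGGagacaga
RESP18: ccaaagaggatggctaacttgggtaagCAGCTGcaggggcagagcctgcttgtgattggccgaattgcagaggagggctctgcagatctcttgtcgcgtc

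The vesicle genes SYN2 and SYP differed in how far the groups stood apart. SYN2, synapsin II, which tethers vesicles to the cytoskeleton (ENSMUSG00000009394.13, chromosome 6, 115134902 to 115282006), stood at 9.92, 9.38 and 10.9 CPM in PSC against 2.23, 1.56 and 2.02 CPM in PSCN. Every PSC library was above every PSCN library by a wide margin, with means of 10.1 ± 0.767 and 1.94 ± 0.343 CPM (SD, n = 3 each). The log2 fold change was -2.38 (SE 0.26), or 5.19-fold lower in PSCN, and the adjusted p was 0.137 in edgeR. In the authors' deposited table SYN2 stands in row 7 of 46937, with a log2 fold change of -2.38 and an adjusted p of 1.22e-23. Fitted with PSC library 3 alone for PSC, the log2 fold change was -2.51 (SE 0.35, adjusted p = 0.543 in edgeR), where the lone PSC library is assumed to vary as the PSCN libraries do. SYN2 holds other genes within its span. TIMP4, a metalloproteinase inhibitor on the opposite strand (115241892 to 115252205), had 678, 235 and 52 counts in PSC against 44, 15 and 44 in PSCN, a pattern in which PSC library 3 is low, unlike that of SYN2. The predicted genes GM17482 and GM18325 within SYN2 had 0 counts in all 6 libraries. The library kit was stranded, but no source used here says whether strand was used in counting.

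SYP, synaptophysin, the abundant membrane protein of small vesicles (ENSMUSG00000031144.15, chromosome X, 7638471 to 7653256), stood at 8.19, 5.71 and 1.21 CPM in PSC against 1.66, 1.30 and 1.21 CPM in PSCN. PSC library 3 was as low as the lowest PSCN library, so the groups overlapped. The log2 fold change was -1.86 (SE 0.69, adjusted p = 0.209 in edgeR). It was -2.31 and passed without PSC library 3 (adjusted p = 0.0403 in edgeR), and 0.18 with that library standing alone for PSC. SYP is X-linked, and with sex as read from XIST and DDX3Y as a covariate it was -2.56 (SE 0.79, adjusted p = 0.197 in edgeR). The antisense gene GM14703, which overlaps the end of SYP, had 4 to 28 counts per library.

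INSM1, the zinc finger factor that drives cells into the neuroendocrine programme (ENSMUSG00000068154.5, chromosome 2, 146221921 to 146225020), stood at 4.64, 3.72 and 1.44 CPM in PSC against 2.13, 0.448 and 0.642 CPM in PSCN. PSCN library 1, which also had the highest CHGA of its group, lay above PSC library 3. The log2 fold change was -1.61 (SE 0.75, adjusted p = 0.267 in edgeR), a difference within the spread between libraries.

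0 of the 6 tested genes passed an adjusted p of 0.05 in edgeR, and 0.0% of the 21201 genes tested passed with lower and 0.00472% with higher values in PSCN. At an unadjusted p under 0.05, 4 of the 6 (CHGB, SYP, SCG5 and SYN2) were lower, where 12.2% of all genes tested were. PSCN lay below every PSC library for 4 of the 8 genes with a row (CHGB, SCG2, SCG5 and SYN2), 3 of which were tested, against 13.4% of all genes tested. SCG5 passed the filter through PSC alone and SCG2 separated by 2 counts, so these counts lend no support beyond the single values. DESeq2 called 4 of the 8 lower (CHGB, SCG2, SCG5 and SYN2), where it called 8.39% of its genes lower. limma-voom with quality weights called CHGB and SYN2, against 5.84%. Without PSC library 3, edgeR called CHGB, SYP, SYN2 and RESP18 lower, 4 of 8, against 5.40% of all genes. RESP18, at 0 in PSCN, entered that fit only through PSC, so its call adds nothing to the count. The authors' deposited table, where 8.10% of genes are lower at an adjusted p under 0.05, has CHGB (0.00145), SCG5 (0.0307), SCG2 (0.0324) and SYN2 under that threshold and SYP (0.0568), RESP18 (0.0888), INSM1 (0.135) and CHGA (0.326) above it.

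Levels were compared between genes per kilobase of annotated exon. In PSC, CHGA led with a mean of 3.32 CPM per kb, though its libraries ran from 0.445 to 6.56. SYN2 followed at 1.43 (1.33 to 1.55), then INSM1 at 1.05 (0.466 to 1.5), SYP at 0.967 (0.233 to 1.57), SCG5 at 0.705 (0.0955 to 1.22) and CHGB at 0.678 (0.134 to 1.14) CPM per kb. Each neighbour in that order overlapped the next in range. RESP18 at 0.260 and SCG2 at 0.167 CPM per kb came last. In PSCN, SYN2 stood at 0.276 (0.222 to 0.317), SYP at 0.267 (0.233 to 0.319) and INSM1 at 0.346 (0.145 to 0.687) CPM per kb, all above CHGB at 0.0563 (0.0282 to 0.0745) and SCG5 at 0.0493 (0 to 0.0889) CPM per kb in every library. CHGA had a mean of 0.554 CPM per kb that rests on PSCN library 1, with a range from 0 to 1.59, and has no fixed place in that order.

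Around these genes, 6 lists of 104 genes in all were fixed by role, with earlier results of these data known. The lists hold the 9 members too, so their counts and medians in part restate the values above. Without the members, 72 genes of the 6 lists were tested, with a median log2 fold change of -0.53. Of these 72, 19 were lower and 4 higher at an unadjusted p under 0.05 in edgeR. The list of granins and granule processing had the lowest median log2 fold change of the 6. Of its 18 genes 14 were tested, 12 of them negative, with a median log2 fold change of -2.34 against -0.01 over all genes tested. 0 passed the adjusted threshold in edgeR, 10 were lower and 1 higher at an unadjusted p under 0.05 (12.2% and 9.48% of all genes tested). The 10 include the members CHGB and SCG5. SCG3 and SCG5, both among the 10, passed the filter on low counts through PSC alone. CADPS2, which primes granules for release, stood at 37.7, 43.8 and 39.5 CPM in PSC against 12.2, 5.42 and 10.7 CPM in PSCN. As with SYN2, its PSC libraries were alike and the groups were far apart (log2 fold change -2.09, SE 0.33, adjusted p = 0.138 in edgeR). HID1, a factor of granule formation at the Golgi, stood at 55.4, 52.9 and 26.3 CPM in PSC against 14.6, 7.46 and 14.0 CPM in PSCN. SCG3, a granin that binds CHGA to the granule membrane, followed the granins, at 1.28, 1.03 and 0.286 CPM in PSC against 0.0729, 0.0618 and 0 CPM in PSCN. PCSK1, the prohormone convertase whose promoter is shown beside the granins, had 5.87, 3.84 and 1.04 CPM in PSC against 0.262, 0.572 and 0.712 CPM in PSCN, and was chosen after its values were seen. Without PSC library 3, edgeR called 7 of the 18 lower (CHGB, RESP18, PCSK1, PAM, CADPS2, HID1 and SYT7), against 5.40% of all genes, RESP18 again through PSC alone. The processing enzyme CPE and the granule membrane protein PTPRN did not share this direction, with log2 fold changes of 1.53 (SE 1.11) and 1.04 (SE 0.38).

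**Figure D2:**
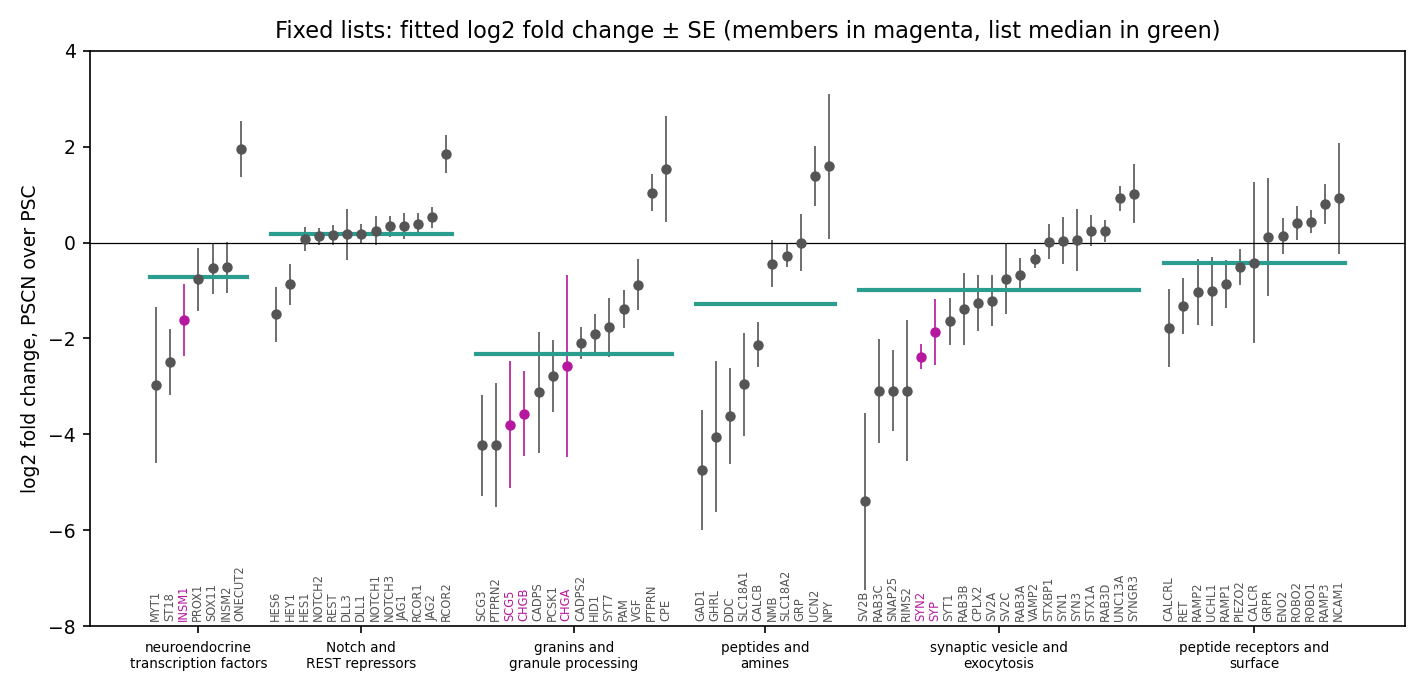
Fitted log2 fold change of PSCN over PSC (vertical axis) with its SE for the tested genes of the 6 lists, ordered by value within a list, the 6 tested members in magenta and each list's median as a green line. The granule list has a median of -2.34, and the Notch and REST list lies near 0 at 0.18.

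Peptides and amines are the secreted products. Of 19 genes 10 were tested, with a median log2 fold change of -1.29, 7 negative and 3 positive. 5 were lower and 0 higher at an unadjusted p under 0.05 (12.2% and 9.48% of all genes tested), and 0 passed adjusted in edgeR. CALCB, the second CGRP gene and a close relative of CALCA, stood at 3.23, 1.40 and 2.37 CPM in PSC against 0.758, 0.433 and 0.405 CPM in PSCN (log2 fold change -2.13, SE 0.47, adjusted p = 0.179 in edgeR), and the pair may share reads. GAD1, which makes the transmitter GABA, stood at 2.29, 3.11 and 0.654 CPM in PSC against 0.175, 0.0464 and 0 CPM in PSCN. DDC, which makes dopamine and serotonin from their precursors, stood at 2.28, 9.54 and 0.858 CPM in PSC against 0.540, 0.278 and 0.209 CPM in PSCN. GRP, the bombesin-like peptide of these cells, had equal means, of 1.17 ± 0.632 and 1.17 ± 0.504 CPM (SD, n = 3 each) and a log2 fold change of 0.00 (SE 0.59). GRP was thus a product gene whose level in PSCN overlapped that in PSC throughout.

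The list of synaptic vesicle and exocytosis genes was divided. Of 23 genes 20 were tested, with 13 negative and 7 positive and a median of -0.98 on the log2 fold change scale. 6 were lower and 1 higher at an unadjusted p under 0.05 (12.2% and 9.48% of all genes tested), and 0 passed adjusted in edgeR. The 6 include the members SYP and SYN2, already described. SNAP25, a SNARE of vesicle fusion, stood at 3.31, 2.44 and 0.586 CPM in PSC against 0.408, 0.0927 and 0.237 CPM in PSCN. SYT1, the calcium sensor of release, stood at 1.42, 1.15 and 0.558 CPM in PSC against 0.408, 0.216 and 0.377 CPM in PSCN. UNC13A, a priming factor, was higher in every PSCN library (15.2 to 26.9 CPM) than in any PSC library (9.18 to 12.1 CPM). The other synapsins, SYN1 and SYN3, overlapped between the groups and had log2 fold changes of 0.04 (SE 0.49) and 0.05 (SE 0.65).

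Factors that set the fate gave mixed values. Of 17 neuroendocrine transcription factors 8 were tested, 7 negative, with a median log2 fold change of -0.71. 1 was lower and 1 higher at an unadjusted p under 0.05, and 0 passed adjusted in edgeR. These counts are near the shares of all genes tested, 12.2% lower and 9.48% higher. ST18, a zinc finger factor, stood at 2.12, 3.17 and 1.13 CPM in PSC against 0.700, 0.170 and 0.265 CPM in PSCN. Its relative MYT1 stood at 1.42, 0.963 and 0.177 CPM in PSC against 0.321, 0 and 0 CPM in PSCN. ONECUT2 was higher in every PSCN library than in any PSC library, at 0.702, 0.264 and 0.763 CPM in PSC against 3.41, 1.96 and 1.31 CPM in PSCN.

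The list of Notch and REST genes, drawn up around the signals that hold the fate back, had a median close to that of all genes. It also holds HES6, which favours neuronal fates, so the median mixes roles. All 13 were tested, with 11 positive and a median log2 fold change of 0.18, and 0 passed adjusted in edgeR. 1 was higher and 1 lower at an unadjusted p under 0.05 in edgeR, near the shares of all genes tested (9.48% and 12.2%). REST averaged 63.3 ± 16.6 CPM in PSC against 70.7 ± 4.79 CPM in PSCN (SD, n = 3 each), a log2 fold change of 0.16 (SE 0.21). Its corepressor RCOR2 was higher in every PSCN library (15.8 to 31.3 CPM) than in any PSC library (3.84 to 8.64 CPM), with a log2 fold change of 1.85 (SE 0.40, adjusted p = 0.178 in edgeR). The Notch ligand JAG2 stood at 60.6 to 80.2 CPM in PSC against 83.6 to 130.0 CPM in PSCN. HES6, which opposes HES1 and favours neuronal fates, stood at 86.6, 40.6 and 22.3 CPM in PSC against 26.3, 10.4 and 16.2 CPM in PSCN, again with PSC library 3 inside the PSCN range.

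Receptors and surface proteins of this system showed no common direction. Of 14 genes 13 were tested, 7 negative and 6 positive, with a median log2 fold change of -0.42 and 0 at an unadjusted p under 0.05 either way in edgeR. CALCRL, the receptor chain for CGRP and adrenomedullin that endothelium also carries, stood at 486, 244 and 39.8 CPM in PSC against 64.8, 92.4 and 66.6 CPM in PSCN. The summed level of 5 endothelial markers followed a like course, at 1470, 833 and 270 CPM in PSC against 639, 539 and 371 CPM in PSCN, and its part in the CALCRL values was not tested. RET, a neurotrophic receptor, stood at 2.76 to 7.99 CPM in PSC against 1.07 to 3.59 CPM in PSCN. RAMP3, which pairs with CALCRL, stood at 3.55 to 9.26 CPM in PSC against 8.91 to 13.7 CPM in PSCN.

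**Figure D3:**
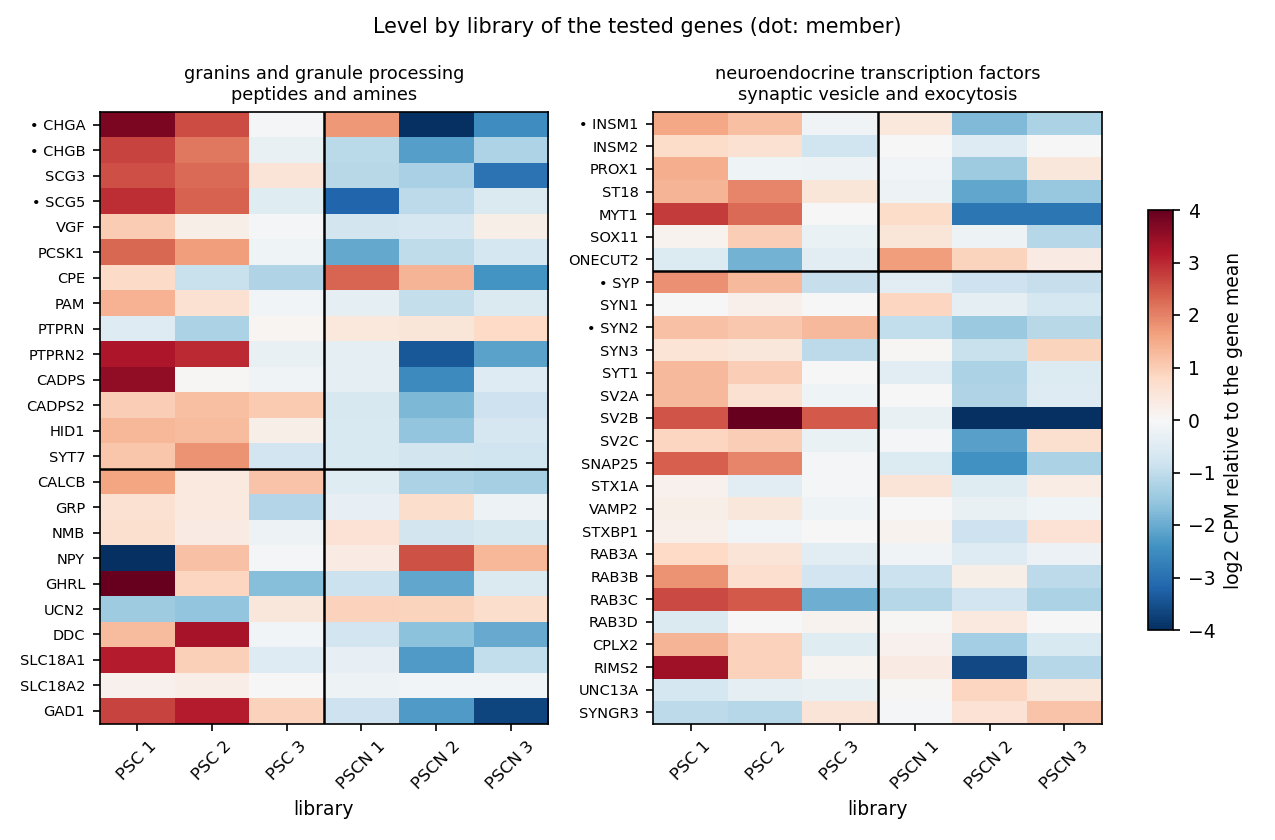
Log2 CPM relative to each gene's mean over 6 libraries (colour scale limited to -4 to 4) for the tested genes of 4 lists, one column per library, a dot marking the members. CHGA, CHGB and SCG5 are high in PSC 1 and PSC 2 and pale in PSC 3, whereas SYN2 and CADPS2 keep one colour over the 3 PSC libraries.

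Markers of other cell types were read in the same libraries. The 11 of 12 pulmonary neuroendocrine markers with a row summed to 66.1, 53.4 and 13.3 CPM in PSC against 25.5, 8.11 and 10.3 CPM in PSCN, and 11 of 11 were lower in PSC library 3 than in PSC libraries 1 and 2. 6 of the 11 are genes already described (CHGA, CHGB, SYP, INSM1, RESP18 and SCG5), so the sum in part restates their values. 10 ciliated cell markers summed to 1010, 470 and 44.8 CPM in PSC against 31.8 to 75.4 CPM in PSCN, with 10 of 10 lower in PSC library 3 than in the other PSC libraries and none at 0. 7 club cell markers summed to 27500, 18300 and 3770 CPM in PSC against 571 to 1960 CPM in PSCN, none at 0. Of these 7, 5 were lower in PSC library 3 than in the other PSC libraries. MUC5B was highest there, at 252, 343 and 939 CPM in PSC, and BPIFB1 was lowest in PSC library 2. SCGB1A1 alone gave 22200, 10700 and 572 CPM of the PSC sums. The 9 squamous markers with a row ran the other way, with sums of 139, 1570 and 5800 CPM in PSC and 8160 to 25100 CPM in PSCN. The granins, SYP and INSM1 were thus high in the 2 libraries with the most airway marker RNA and the least squamous marker RNA, and the part of that mix in their values was not tested. 7 alveolar type 2 markers summed to 6950, 12500 and 1520 CPM in PSC and 2170 to 2880 CPM in PSCN. The sums of tuft cell (29.7 to 74.6 CPM), mast cell (93.1 to 172.0 CPM) and leukocyte markers (127.0 to 384.0 CPM) overlapped between the groups. Of the 4 tested tuft cell markers 2 were negative and 2 positive. DCLK1 was lower in PSCN without overlap (log2 fold change -1.5, SE 0.41), while AVIL reached 61.7 CPM in PSCN library 3. The mast cell sum is nearly all KIT, which other cells also carry. 4 of the 5 tested mast cell markers were lower in PSCN without overlap, against 13.4% of all genes tested. Among them were CPA3 (log2 fold change -4.24, SE 0.54) and CMA1 (-3.43, SE 1.06). TPSB2, FCER1A and MS4A2 were at 0 in all PSCN libraries, but FCER1A had only 0, 0 and 5 counts in PSC and was not tested. CPA3, TPSB2 and MS4A2 passed the filter on low counts through PSC alone, and CMA1 reached its level in 1 PSCN library. The count of 4 therefore lends no support beyond the single values. The B cell marker CD79A of the leukocyte list was lower without overlap too (-3.33, SE 0.60). PSCN library 1, with the highest CHGA and INSM1 of its group, also had the highest fibroblast sum, 40900 CPM against 1040 to 3810 CPM in the other 5 libraries, and the part of this in its values was not tested.

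Neurons share many of these vesicle and granule genes. 10 neuronal markers summed to 48.6, 26.5 and 15.2 CPM in PSC against 19.3 to 58.0 CPM in PSCN. TUBB3, a neuronal tubulin, gave 16.5 of 24.1, 50.9 of 58.0 and 15.1 of 19.3 CPM in PSCN libraries 1, 2 and 3. It was the 1 positive among the 9 tested neuronal markers. The other 8 were negative, and the median log2 fold change was -1.86. As with the granins, 8 of the 10 were lower in PSC library 3 than in PSC libraries 1 and 2. Among the 8 negative markers, the RNA-binding protein ELAVL4 and the neurite protein STMN2 had log2 fold changes of -2.15 (SE 0.48) and -2.28 (SE 0.66). 3 of the 5 tested glial markers were lower at an unadjusted p under 0.05 in edgeR, against 12.2% of all genes tested. The 6 glial markers nevertheless summed to 84.2 to 112.0 CPM in PSC against 95.9 to 159.0 CPM in PSCN, most of it MBP. The part of nerve RNA in the granin and vesicle values was not tested.

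**Figure D4:**
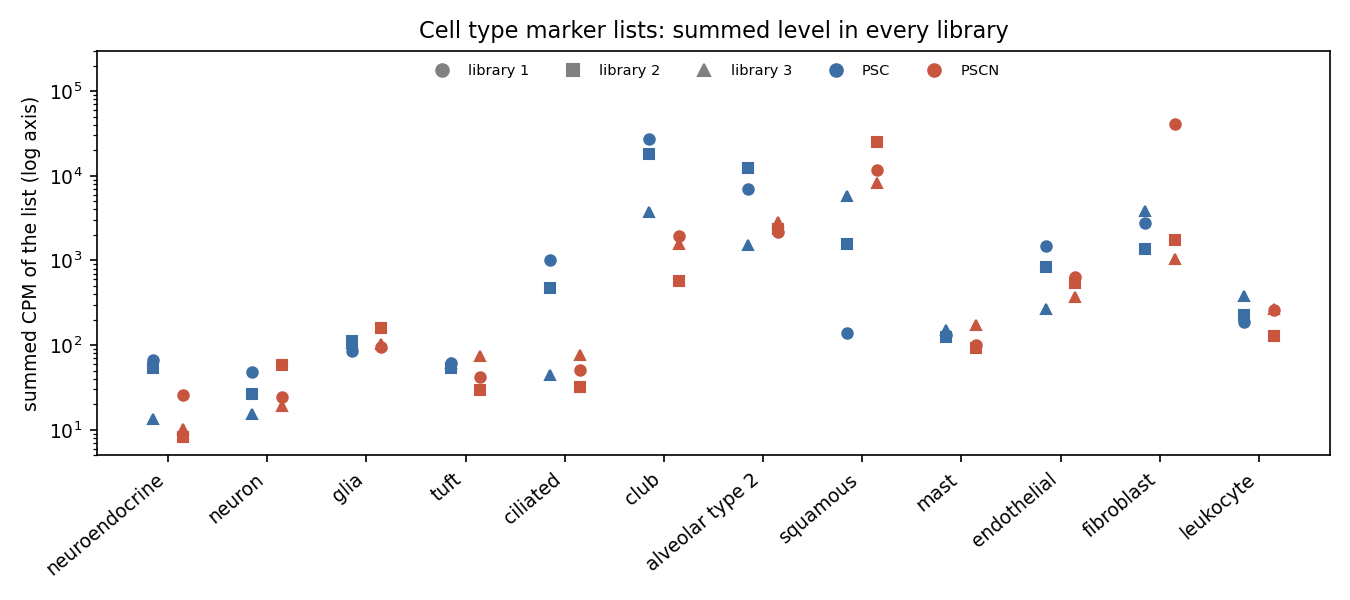
Summed CPM (log axis) of each cell type marker list in 3 PSC (blue) and 3 PSCN (red) libraries. Neuroendocrine, ciliated and club sums are highest in PSC libraries 1 and 2, while the squamous sum is lowest in PSC library 1 at 139 CPM.

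The genes whose profile over the 6 libraries was most like the mean profile of the 6 tested members were SHLD1, TCEAL1, CNTLN, EFCAB12 and PRCD, with a Pearson r of 0.9971 to 0.9996 over 6 libraries. The 6 points share depth and tissue mix, so r is a description. SHLD1 stood at 5.49, 4.96 and 3.58 CPM in PSC against 3.14, 2.55 and 2.85 CPM in PSCN. EFCAB12 spanned more, at 14.0, 7.83 and 2.44 CPM in PSC against 1.57, 0.649 and 1.17 CPM in PSCN. The mean z-score of the members was 1.21, 0.94 and -0.04 in PSC against -0.37, -1.05 and -0.69 in PSCN.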

How the data were processed

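Total RNA of 3 PSC and 3 PSCN biopsies was made into stranded libraries and read at 76 nt, per the labels' protocols. Per the submitters' processing notes the build was GRCm38 and the tools, listed with no version, were HISAT2, StringTie, Trimmomatic and DESeq2. The authors deposited estimated counts per gene symbol, as whole numbers. They also deposited a table with DESeq2's mean normalized signal, log2 fold changes with standard errors, a Wald statistic (a score) and p-values, per the file headers. The mean recomputed from the counts differed from the deposited one by at most 5e-04. Columns were matched to libraries by letter and number, a match that the labels do not spell out.

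Counts were filtered with filterByExpr, normalized with TMM and tested in edgeR 4.0.16 (R 4.3.3) by its quasi-likelihood F test over 21201 genes, with Benjamini-Hochberg adjustment at 0.05. There were 4 residual and 2.03 prior degrees of freedom. The SE was taken as the absolute log2 fold change divided by the root of F. CPM uses TMM-adjusted library sizes, and log2 CPM a prior count of 2. Alternatives were RLE and upper quartile normalization, DESeq2 1.42.0, limma-voom with quality weights (limma 3.58.1), no filter, a filter at 1 CPM in 3 libraries, leaving out each library, keeping PSC library 3 alone for PSC, a replicate block, and sex as a covariate. The fits were tested on simulated data. There DESeq2 made more false calls than edgeR or limma-voom, and it also recovered more of the planted differences. Many planted differences were missed by edgeR, so a gene that did not pass in edgeR is not thereby shown to be unchanged. Reads carried no molecular identifiers and may repeat a molecule, so intervals and floors cover counting error only. Gene spans and exon lengths came from GENCODE M21 (GRCm38).

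The genes and lists were chosen with earlier results of these data known. Named genes were the 9 genes of the rule, the 3 others of each list with the smallest p, GRP and REST, and the 5 most similar profiles. Some list genes count in the sums and medians but are not reported or drawn here. PCSK1, PCSK1N, CPE, PTPRN, PTPRN2, SYN1, SYN3, TIMP4, the marker genes named singly and the genes of the closing section were chosen after their values were seen.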

Additional observations from a re-analysis of the deposited data

How the results depend on the processing

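The count of genes called higher over all genes was 1, and it was 916 with DESeq2, 1788 with limma-voom, 3 with the filter at 1 CPM, and 0 with PSC library 3 standing alone for PSC, with the replicate block or with sex as a covariate. Leaving out each library in turn gave 0 to 751 higher and 0 to 1195 lower genes, the upper values without PSC library 3, and DESeq2 and limma-voom called 1855 and 1238 lower. The count of neuroendocrine genes called lower was 0, with 4 in DESeq2, 2 in limma-voom and 0 to 4 as each library was left out. PSCN lay below PSC for 4 of the 8, or 3 of the 6 tested (13.4% of all genes tested), and for 4 to 8 of the 8 as each library was left out. The share over all genes was not counted for those smaller sets of libraries. With PSC library 3 standing alone for PSC, CHGA and SYP changed sign, to 0.29 and 0.18 on the log2 scale. In DESeq2 CHGB (-3.61), SCG2 (-4.9), SCG5 (-3.83) and SYN2 (-2.38) passed, and in limma-voom CHGB (-3.64) and SYN2 (-2.31). As each library was left out, CHGB ran from -4.04 to -2.98, SYP from -2.31 to -1.32 and SYN2 from -2.48 to -2.29. CHGA ran from -6.39 to -1.62, INSM1 from -2.57 to -1.27 and SCG5 from -4.56 to -3.15. The cause was not tested.

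Medians of log2 fold change moved with the genes and libraries that entered. With that library standing alone they were 0.10 for transcription factors, a change of sign from -0.71, -0.88 for granules, -0.15 for peptides and amines, 0.11 for synaptic vesicles, 0.16 for receptors and 0.30 for Notch and REST. With sex as a covariate receptors were at 0.29 and Notch and REST at 0.33. Peptides and amines were at -2.30 in DESeq2, -2.53 with no filter and -0.32 with the filter at 1 CPM, where synaptic vesicles were at -0.38, fewer genes being tested there. Transcription factors were at -1.57 in limma-voom. Leaving out each library gave -2.28 to -0.26 for transcription factors, 0.07 to 0.29 for Notch and REST, -2.86 to -0.73 for peptides and amines and -1.09 to 0.13 for receptors. Same-numbered libraries share a number and no more: their deviations correlated at 0.186, -0.053 and 0.016, and not every library correlated best with its own number. With the replicate block 0 genes were called higher, and SYN2 stood at -2.39. SCG2 and RESP18 rest on under 100 counts each, so a difference between PSC library 3 and PSCN was not detectable at this depth.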

Other observations

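Several endocrine genes outside the named set had most of their counts in PSC libraries 1 and 2. RFX6, a factor of gut and pancreatic endocrine cells, had 505 counts in PSC library 1 and 0 in the other 5 libraries. GHRL, the precursor of ghrelin, had 1070, 96 and 14 counts in PSC against 25, 9 and 32 in PSCN. NEUROG3, which starts endocrine fate in the gut and pancreas, had 42, 11 and 3 counts in PSC against 0 in PSCN. NEUROD1, a factor of neuroendocrine maturation, had 11, 7 and 0 counts in PSC against 0 in PSCN. FEV, a factor of serotonin-making cells, had 18, 31 and 0 counts in PSC against 0 in PSCN. The peptide ADCYAP1 had 19, 59 and 0 counts in PSC against 0 in PSCN.

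Other genes of the lists had more counts in PSCN. The homeobox factor NKX2-2 had 4, 0 and 4 counts in PSC against 26, 6 and 40 in PSCN. ISL1 had 0 counts in each PSC library and 29, 65 and 7 in PSCN. The neuropeptide NPY had 0, 187 and 77 counts in PSC against 95, 417 and 201 in PSCN. UCN2, a peptide of the corticotropin-releasing family, had 62, 57 and 231 counts in PSC against 298, 277 and 270 in PSCN, and without PSC library 3 edgeR called it higher. By contrast, the vesicle protein SV2B had 282, 1092 and 265 counts in PSC against 35, 0 and 0 in PSCN, so that its PSC library 3, unlike that for CHGA, stayed far above PSCN.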
